A study of Mus musculus with 8 samples.

Results

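The 9 genes described here encode receptors of chemokines and related attractants: Xcr1, Ccr7, Ccr1, Ccr2, Ccr9, Cxcr3, Cxcr4, Cx3cr1 and Ccrl2. They were taken by name as a list, and all 9 were found among the 24369 gene symbols of the deposited read count table. After the filter on low counts 11394 genes were tested, and all 9 receptors were among them. The libraries came from wild-type mice carrying tumours of MC38, a mouse colon carcinoma line that here expressed enhanced green fluorescent protein (EGFP). Conventional dendritic cells were sorted from the tumours by flow cytometry into the subsets cDC1 and cDC2, and each subset was divided by its EGFP signal, which a dendritic cell can take up from tumour cells. The 4 groups were EGFP-positive cDC1, EGFP-negative cDC1, EGFP-positive cDC2 and EGFP-negative cDC2, with 2 libraries each and 8 in all. All groups shared the wild-type genotype and the EGFP-expressing tumour, and no drug is named for any of them. The labels give neither the age of the mice nor whether the 2 libraries of a group came from separate animals, and a code in the titles that all libraries of one replicate number share is not explained, so p-values measure the spread between these libraries, which may be technical.

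Chemokine receptors are proteins that cross the membrane several times, signal mostly through inhibitory G proteins and steer a cell along a gradient of its ligand. Beta-arrestins and receptor kinases switch the signal off, and a few atypical receptors bind their ligand without it. In dendritic cells XCR1 sets the cDC1 subset apart and binds XCL1 from T and NK cells, CCR7 brings maturing cells to lymph nodes, and CCR1, CCR2 and CX3CR1 are best known from monocytes and macrophages.

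Each library held 17869441 to 22195681 counts, of which 19.4% to 35.6% fell on the ribosomal RNA gene Rn45s. Levels are given as CPM, read counts relative to the library total after scaling by the trimmed mean of M values (TMM), and a library's floor of 3 counts was worth 0.131 to 0.210 CPM. The 2 libraries of EGFP-positive cDC1 stood apart from each other: 1856 genes, 23.3% of those with at least 100 counts in either library, had 0 in the other. This share came to 7.49% for EGFP-negative cDC1 and, among cDC2 libraries, to 2.51% for EGFP-positive and 2.81% for EGFP-negative cells. The cDC2 libraries went against their label in part. Summed over 5 markers of conventional dendritic cells (Flt3, Zbtb46, Kit, Dpp4 and Bcl11a), the level was 178 to 496 CPM in the cDC1 libraries and 3.02 to 18.5 CPM in the cDC2 libraries. Summed over 12 macrophage markers, it was 89.5 to 2539 CPM in the cDC1 libraries and 8969 to 18936 CPM in the cDC2 libraries, so cDC2 names the sorting gate here. The sum over 8 cDC2 markers went with the label, at 32.9 to 396 CPM in the cDC1 libraries and 905 to 948 CPM in the cDC2 libraries. Most of it in the cDC2 libraries came from Itgam, Sirpa and Klf4, and the part of macrophages in this sum was not tested. Of the 8, 7 had a log2 fold change below 0 for cDC1 over cDC2. Single members did not all follow the label: Mgl2 was highest of all libraries in replicate 2 of EGFP-negative cDC1, at 220 CPM. Clec10a had 82.8 CPM in replicate 1 of EGFP-negative cDC1, against 21.0 to 102 CPM in the cDC2 libraries. In such bulk samples, fewer cells of a type and less RNA per cell cannot be told apart.

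**Figure D1:**
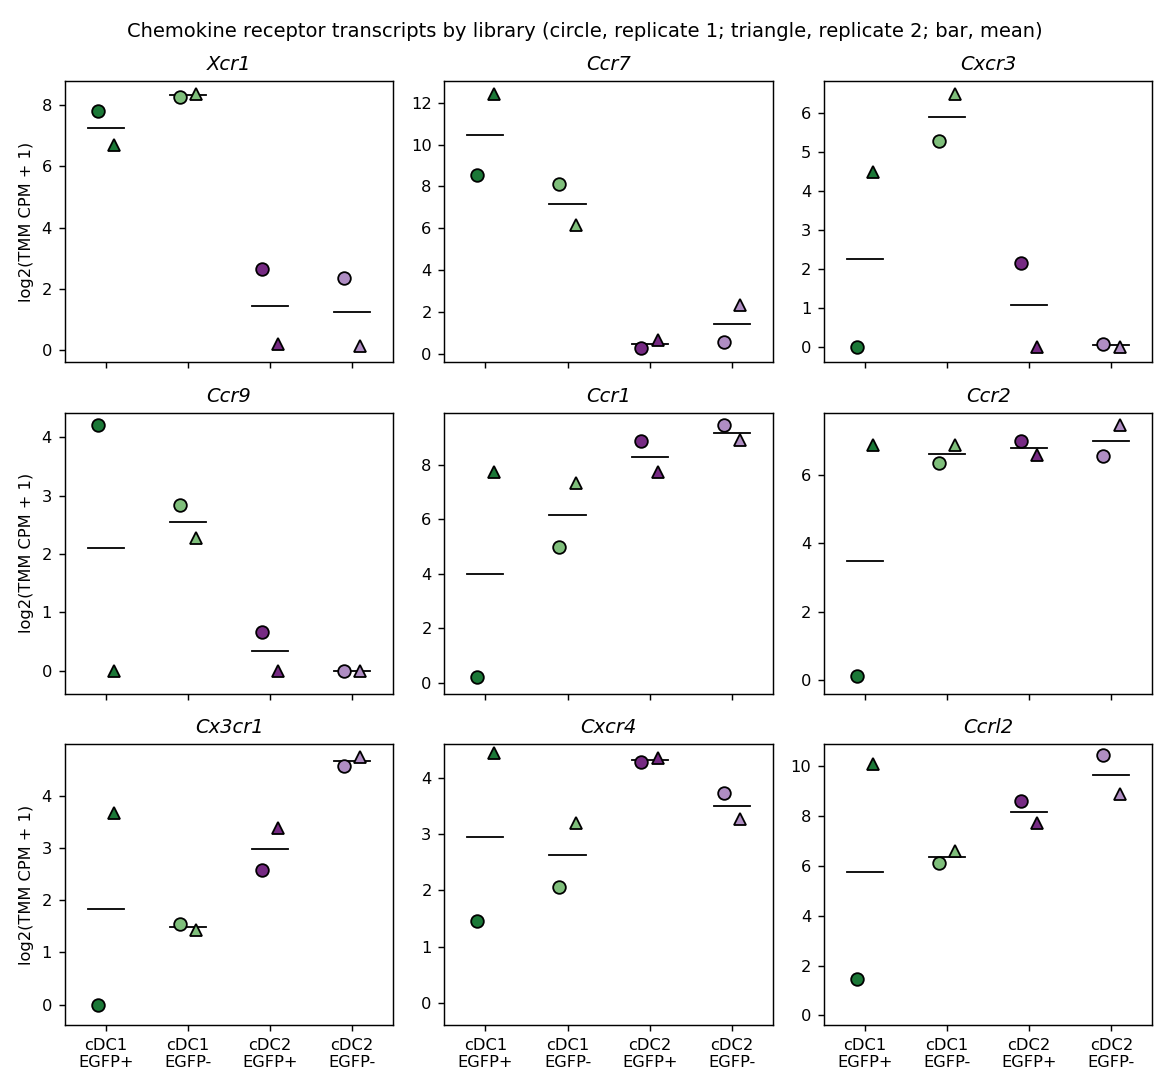
Level of the 9 receptor genes in each of the 8 libraries, as log2 of CPM plus 1, with 1 panel per gene, the group on the horizontal axis, circles for replicate 1, triangles for replicate 2 and a bar for the mean of the log2 values. Xcr1 and Ccr7 lie higher in every cDC1 library than in every cDC2 library, while replicate 1 of EGFP-positive cDC1 is at or near 0 for Ccr1, Ccr2, Cxcr3 and Cx3cr1.

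Xcr1 marked the cDC1 libraries. Its level was 221 and 103 CPM in EGFP-positive cDC1 and 309 and 331 CPM in EGFP-negative cDC1, against 5.31 and 0.148 CPM in EGFP-positive cDC2 and 4.15 and 0.0890 CPM in EGFP-negative cDC2. All 4 cDC1 libraries lay above all 4 cDC2 libraries, and within each cDC2 group replicate 1 held nearly all of the Xcr1 counts (102 of 105 in EGFP-positive cDC2 and 77 of 79 in EGFP-negative cDC2). The Xcr1 level averaged 162 ± 83.4 CPM in EGFP-positive cDC1 and 320 ± 15.4 CPM in EGFP-negative cDC1 (SD, n = 2 each), and the libraries of these groups did not overlap.

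The genes Ccr9, Xcr1, Ccr1 and Ccr2 lie within 435 kb of chromosome 9 (chr9:123678439-124113557, GRCm38, GENCODE M21), and Cx3cr1 and Ccrl2 lie elsewhere on that chromosome. Ccr7 is on chromosome 11, Cxcr4 on chromosome 1 and Cxcr3 on the X chromosome. Neighbours in the cluster had opposite patterns, with Xcr1 (chr9:123852315-123862029, minus strand) highest in cDC1 and Ccr1 (chr9:123962124-123968692, minus strand) highest in cDC2. The 250 bases before the start site are shown for this pair, and for Cxcr4 (chr1:128588199-128592293, minus strand), whose mean log2 level differed least between the 4 groups. Each reads 5′ to 3′ on the gene's strand, from RefSeq (GRCm38.p6), with capitals at matches to the motif TATAAA on either strand.
Xcr1 (chr9:123862030-123862279, minus strand): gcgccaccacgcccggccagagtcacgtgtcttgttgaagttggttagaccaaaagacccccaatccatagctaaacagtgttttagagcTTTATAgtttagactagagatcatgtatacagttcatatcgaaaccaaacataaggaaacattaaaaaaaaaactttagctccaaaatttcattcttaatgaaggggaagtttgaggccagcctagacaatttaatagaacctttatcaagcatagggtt
Ccr1 (chr9:123968693-123968942, minus strand): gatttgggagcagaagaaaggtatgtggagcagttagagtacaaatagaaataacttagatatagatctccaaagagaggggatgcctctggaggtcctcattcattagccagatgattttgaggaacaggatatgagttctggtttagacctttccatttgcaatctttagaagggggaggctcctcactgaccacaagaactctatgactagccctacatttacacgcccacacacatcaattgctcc
Cxcr4 (chr1:128592300-128592549, minus strand): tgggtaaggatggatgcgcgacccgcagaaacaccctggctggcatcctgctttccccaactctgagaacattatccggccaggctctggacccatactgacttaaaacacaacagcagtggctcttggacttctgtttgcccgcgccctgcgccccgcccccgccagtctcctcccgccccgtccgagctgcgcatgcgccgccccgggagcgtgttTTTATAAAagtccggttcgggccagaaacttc

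The matches in the Cxcr4 window begin 32 and 30 bases before the start site and overlap, and the match in the Xcr1 window begins 160 bases before it, on the opposite strand. TATAAA occurs in 12.4% of 32851 mouse promoter windows of this length. Also searched on both strands were TGANTCA for AP-1 (6.75% of all windows), GAGGAAGT for ETS factors (2.44%) and, by name, the interferon-response element (2.98%), the NF-kB site (0.356%) and the ETS and IRF composite element (2.30%), which can overlap the interferon-response element. None of these occurs in the 3 windows shown. Promoter windows were found for 8 of the 9 receptors, the exception being Ccr7.

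Ccr7 had the widest range of the 9. It reached 367 and 5496 CPM in EGFP-positive cDC1 (8407 and 78342 counts) and 277 and 70.8 CPM in EGFP-negative cDC1, against 0.208 and 0.593 CPM in EGFP-positive cDC2 and 0.485 and 4.01 CPM in EGFP-negative cDC2. Every cDC1 library lay above every cDC2 library, and within cDC1 both EGFP-positive libraries lay above both EGFP-negative ones. One library, replicate 2 of EGFP-positive cDC1, accounted for most of the mean of its group, which was 2932 ± 3627 CPM in EGFP-positive cDC1 and 174 ± 146 CPM in EGFP-negative cDC1 (SD, n = 2 each). The other EGFP-positive library, at 367 CPM, lay close to the higher EGFP-negative one, at 277 CPM.

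The inflammatory receptors Ccr1 and Ccr2 were near 0 in replicate 1 of EGFP-positive cDC1 and well above it in the other 7 libraries. For Ccr1, which binds CCL3, CCL5 and related chemokines, the level was 0.175 and 214 CPM in EGFP-positive cDC1, 30.9 and 158 CPM in EGFP-negative cDC1, 467 and 210 CPM in EGFP-positive cDC2 and 699 and 474 CPM in EGFP-negative cDC2. The EGFP-negative cDC2 libraries were the highest, and the cDC1 and cDC2 libraries overlapped only through replicate 2 of EGFP-positive cDC1. Ccr2, the receptor of CCL2 that lets monocytes leave the bone marrow, was even across the groups apart from replicate 1 of EGFP-positive cDC1. Its level was 0.0874 and 116 CPM in EGFP-positive cDC1, 79.9 and 115 CPM in EGFP-negative cDC1, 127 and 94.2 CPM in EGFP-positive cDC2 and 92.8 and 174 CPM in EGFP-negative cDC2. Of the 6758 windows of 50 bases in Ccr2 transcripts, 1.91% also occur in transcripts of other genes, so the assignment of a small share of its reads is uncertain.

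Cx3cr1, the receptor of the membrane-bound chemokine CX3CL1, was low in cDC1 and highest in EGFP-negative cDC2. Its level was 0 and 11.7 CPM in EGFP-positive cDC1 and 1.92 and 1.68 CPM in EGFP-negative cDC1, against 4.94 and 9.39 CPM in EGFP-positive cDC2 and 23.0 and 26.0 CPM in EGFP-negative cDC2. The EGFP-negative cDC2 libraries lay above all others, and replicate 2 of EGFP-positive cDC1 lay above both EGFP-positive cDC2 libraries.

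Cxcr3, best known from effector T and NK cells and bound by CXCL9 and CXCL10, was mainly found in cDC1. The level was 0 and 21.5 CPM in EGFP-positive cDC1 and 37.8 and 89.4 CPM in EGFP-negative cDC1, against 3.43 and 0 CPM in EGFP-positive cDC2 and 0.0539 and 0 CPM in EGFP-negative cDC2. EGFP-negative cDC1 lay above all other libraries. Of 7 T and NK cell markers, Cd3e, Cd3g, Gzma and Ncr1 had 0 counts in all 8 libraries and Nkg7 had 1 count in 1 library. The T cell marker Cd3d had 31 and 3 counts in EGFP-positive cDC2, the first in the library that held the Cxcr3 of that group, and 0 in the other 6 libraries. The summed level of the list was 5.24 and 106 CPM in EGFP-positive cDC1 and 156 and 66.4 CPM in EGFP-negative cDC1, against 1.67 and 0.840 CPM in EGFP-positive cDC2 and 6.41 and 3.78 CPM in EGFP-negative cDC2. Klrd1 made up most of the sum except in replicate 1 of EGFP-positive cDC2, where Cd3d did. The part of such cells in Cxcr3 was not tested.

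Ccr9, the CCL25 receptor of gut-homing lymphocytes and plasmacytoid dendritic cells, was low and mainly found in cDC1. It had 17.5 and 0 CPM in EGFP-positive cDC1 and 6.12 and 3.82 CPM in EGFP-negative cDC1, against 0.572 and 0 CPM in EGFP-positive cDC2 and 0 CPM in both EGFP-negative cDC2 libraries. Of the 4 cDC1 libraries, 3 lay above all cDC2 libraries, and the 0 in EGFP-negative cDC2 allows up to 0.0731 CPM over the group by counting error alone. Of the other plasmacytoid markers, Siglech had 2.49 and 0 CPM in EGFP-positive cDC1, 0 and 0.885 CPM in EGFP-negative cDC1 and 0 in all cDC2 libraries, so the library of highest Ccr9 also had the highest Siglech. Bst2 (57.9 to 259 CPM) and Tcf4 (6.48 to 30.8 CPM) were present in all 8 libraries, and Ly6d and Klk1 had 0 counts in all 8. The part of such cells in Ccr9 was not tested. Of the exonic bases of Ccr9, 21.7% also belong to other annotated genes (AC165425.1, Gm17200 and Slc6a20a), and the use of strand in counting is not given, so its counts are uncertain.

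Cxcr4, the CXCL12 receptor that holds cells in bone marrow and tissue, varied as much within EGFP-positive cDC1 as between groups. The level was 1.75 and 20.9 CPM in EGFP-positive cDC1, 3.18 and 8.15 CPM in EGFP-negative cDC1, 18.6 and 19.5 CPM in EGFP-positive cDC2 and 12.3 and 8.68 CPM in EGFP-negative cDC2. Within the cDC2 gate, both EGFP-positive libraries lay above both EGFP-negative ones, while in cDC1 the groups overlapped.

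Ccrl2 encodes an atypical receptor that binds chemerin, the product of Rarres2, and presents it to neighbouring cells without G protein signalling. Its level was 1.75 and 1070 CPM in EGFP-positive cDC1, 68.8 and 95.4 CPM in EGFP-negative cDC1, 383 and 211 CPM in EGFP-positive cDC2 and 1379 and 467 CPM in EGFP-negative cDC2. The 2 EGFP-positive cDC1 libraries held the lowest and the second highest value of all 8. Among the other groups the order was EGFP-negative cDC2, EGFP-positive cDC2 and EGFP-negative cDC1, with no overlap between them.

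Divided by the length of the principal transcript, the receptor of highest mean level was Ccr7 in both cDC1 groups and Ccrl2 in both cDC2 groups. In EGFP-positive cDC1 the mean level was 1482 ± 1834 CPM per kb for Ccr7, 218 ± 307 for Ccrl2, 37.9 ± 53.5 for Ccr1 and 36.5 ± 18.7 for Xcr1 (SD, n = 2 each), where each of the first 3 overlapped the next in rank, and Xcr1 did not overlap Ccr2, which followed at 10.1 ± 14.3 CPM per kb. For EGFP-negative cDC1 it was 87.9 ± 73.7 CPM per kb for Ccr7 and 71.9 ± 3.46 for Xcr1, which overlapped, and then 36.7 ± 21.1 for Cxcr3. Across EGFP-positive cDC2, Ccrl2 at 121 ± 49.5 and Ccr1 at 120 ± 64.1 CPM per kb overlapped and lay above Ccr2 at 19.3 ± 4.02 CPM per kb. The same 3 genes led EGFP-negative cDC2, with 375 ± 262 CPM per kb for Ccrl2, 207 ± 56.1 for Ccr1 and 23.3 for Ccr2, whose libraries had 16.2 and 30.3 CPM per kb. Xcr1, which ranked second in EGFP-negative cDC1, stood at 0.613 ± 0.819 CPM per kb in EGFP-positive cDC2 and 0.476 ± 0.645 CPM per kb in EGFP-negative cDC2.

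The design first asks how the subsets differ. Over both EGFP fractions, 4 cDC1 libraries against 4 cDC2 libraries, none of the 9 receptors passed edgeR's quasi-likelihood test (glmQLFTest, Benjamini-Hochberg adjusted p under 0.05 over all genes), where 1.32% of all genes did. At an unadjusted p under 0.05 there were 3 (Xcr1, Ccr7 and Ccr9), against 13.5% of all genes. DESeq2 called 4, all higher in cDC1 (Xcr1, Ccr7, Ccr9 and Cxcr3), against 10.2% of all genes. Xcr1 and Ccr7 were the 2 receptors whose 4 cDC1 libraries all lay above the 4 cDC2 libraries, a separation in either direction that 12.5% of all genes showed.

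For Xcr1 the level averaged 241 ± 103 CPM in cDC1 and 2.42 ± 2.703 CPM in cDC2 (SD, n = 4 each), and the fitted log2 difference was 6.57 (SE 1.46, edgeR adjusted p = 0.104). The Ccr7 level averaged 1553 ± 2632 CPM in cDC1 and 1.32 ± 1.80 CPM in cDC2, with a fitted log2 difference of 9.39 (SE 2.30, edgeR adjusted p = 0.139). Ccr7 passed edgeR's test when replicate 2 of EGFP-positive cDC1 was left out (log2 fold change 7.73, adjusted p = 0.0408), where 2.22% of all genes passed, and when both EGFP-positive cDC1 libraries were (6.26, adjusted p = 0.0410), where 3.55% did. The fitted log2 fold change was 6.68 for Ccr9 and 6.17 for Cxcr3. It was -2.15 for Ccr1, -2.03 for Cx3cr1, -1.32 for Ccrl2, -0.82 for Cxcr4 and -0.69 for Ccr2, each with an adjusted p over 0.6 in edgeR. Without both EGFP-positive cDC1 libraries, Ccrl2 was lower in cDC1 with a log2 fold change of -3.49 (edgeR adjusted p = 0.0270). Macrophage markers moved with the contrast over both EGFP fractions: all 12 of the list had a log2 fold change below 0, with a median of -6.78. Of these, edgeR called 2 lower, against 0.5% of all genes. DESeq2 called 11 lower, against 10.2% of all genes in either direction. Their part in the Ccr1, Cx3cr1 and Ccrl2 values was not tested.

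**Figure D2:**
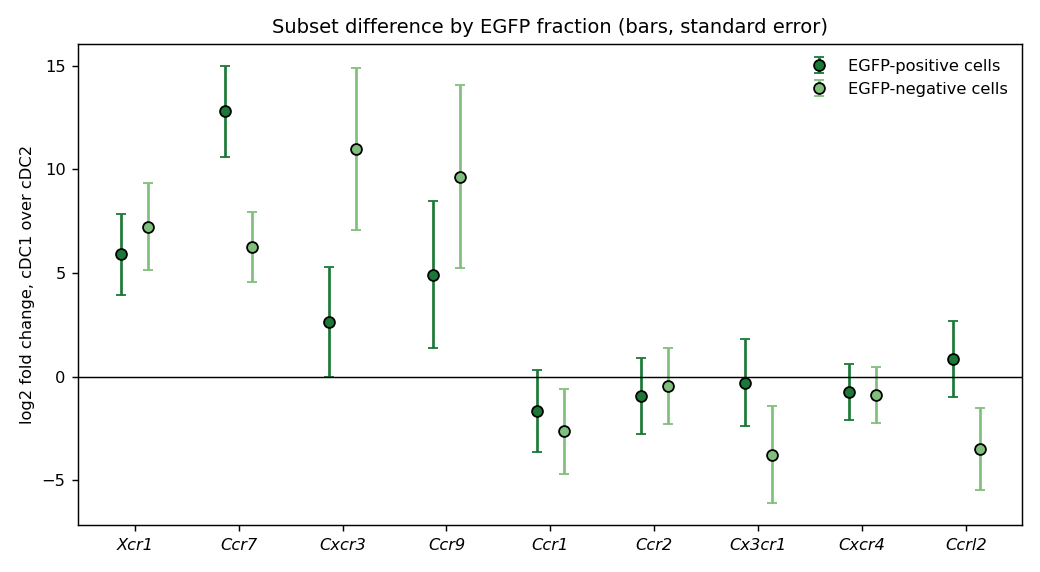
Log2 fold change of cDC1 over cDC2 for the 9 receptor genes in EGFP-positive cells (dark points) and EGFP-negative cells (light points), with standard errors from edgeR as bars. Xcr1 and Ccr7 lie above 0 in both fractions, at 5.90 and 12.81 in EGFP-positive cells and at 7.24 and 6.26 in EGFP-negative cells, and values of Ccr9 and Cxcr3 in EGFP-negative cells rest on 0 and 1 counts in cDC2 and depend on the prior count.

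In EGFP-positive cells the subsets differed most in Ccr7. The level averaged 2932 ± 3627 CPM in cDC1 and 0.401 ± 0.272 CPM in cDC2, with a fitted log2 difference of 12.81 (SE 2.19, edgeR adjusted p = 0.0734). With either EGFP-positive cDC1 library alone it passed, at 13.71 with replicate 2 (adjusted p = 0.0137, with 6.83% of all genes called) and at 9.81 with replicate 1 (adjusted p = 0.0150, with 10.2% called). With replicate 1 alone, which held 0 to 4 counts of the first 3, Ccr1 (-10.87), Ccr2 (-10.21), Cx3cr1 (-10.23) and Ccrl2 (-7.40) were also called lower in cDC1. The fitted value for Xcr1 was 5.90 (SE 1.95, adjusted p = 0.227). With all 8 libraries edgeR called 0 of the 9 receptors against 0.228% of all genes, 2 had an unadjusted p under 0.05 against 15.9%, and DESeq2 called the same 2, Xcr1 and Ccr7, against 13.9%. These 2 were also the receptors without overlap between the groups, as were 46.9% of all genes.

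EGFP-negative cells gave a wider split. Libraries of cDC1 lay above those of cDC2 for Xcr1, Ccr7, Ccr9 and Cxcr3 and below them for Ccr1, Ccrl2, Cx3cr1 and Cxcr4, 8 of 9 receptors against 48.4% of all genes, and the exception was Ccr2. Even so edgeR called 0 of the 9 against 0.36% of all genes, 3 had an unadjusted p under 0.05 against 9.58%, and DESeq2 called Xcr1, Ccr7, Ccr9 and Cxcr3 against 7.35%. Xcr1 averaged 320 ± 15.4 CPM in cDC1 and 2.12 ± 2.87 CPM in cDC2, with a fitted log2 difference of 7.24 (SE 2.08, edgeR adjusted p = 0.305). Cxcr3 had 2728 counts in cDC1 and 1 count in cDC2, a ratio of 2611 with an exact 95% counting interval of 468 to 103170 that leaves out the spread between libraries. In a fit of these 4 libraries alone Cxcr3 was called (adjusted p = 0.0210), as were 2.89% of all genes. Ccr9 was at least 68.0-fold higher in cDC1, computed against a floor of 3 counts over the cDC2 group. Ccrl2 averaged 82.1 ± 18.8 CPM in cDC1 and 923 ± 645 CPM in cDC2, with a fitted log2 difference of -3.49 (SE 1.99, edgeR adjusted p = 0.625), and was called lower at -3.50 when either EGFP-positive cDC1 library left the model (adjusted p = 0.0160 without replicate 1 and 0.0216 without replicate 2, where 3.75% and 3.31% of all genes were called). Cx3cr1 averaged 1.80 ± 0.168 CPM in cDC1 and 24.5 ± 2.18 CPM in cDC2, with a fitted log2 difference of -3.76 (SE 2.34, adjusted p = 0.660).

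The design next asks how cells holding tumour EGFP differ from those without it. Over both subsets edgeR called 0 of the 9 receptors and 0% of all genes, 0 had an unadjusted p under 0.05 against 5.22% of all genes, and DESeq2 called 0 against 1.61%. Within cDC1 edgeR called 0 of the 9 and again 0% of all genes, 1 (Ccr7) had an unadjusted p under 0.05 against 12.7%, and DESeq2 called Ccr7 against 11.6%. Ccr7 had a log2 fold change of 4.08 for EGFP-positive over EGFP-negative cDC1 (SE 1.51, edgeR adjusted p = 0.342). This value was 1.08 without replicate 2 of EGFP-positive cDC1, 4.99 without replicate 1 and 5.38 without replicate 1 of EGFP-negative cDC1. Ccr7 was the 1 receptor that lay higher in both EGFP-positive cDC1 libraries, Xcr1 and Cxcr3 were lower in both, and 35.5% of all genes had no overlap here. The fitted log2 fold change was -0.98 for Xcr1 (SE 1.59) and -2.57 for Cxcr3 (SE 2.62).

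Which EGFP-positive cDC1 library was used set the calls of 4 receptors, as it did for many genes: with replicate 1 alone 8.41% of all genes were called, and with replicate 2 alone 6.15%. With replicate 1 alone, edgeR called Ccr1 lower at -9.03 (adjusted p = 0.0202), Ccr2 at -10.02 (adjusted p = 0.00230), Cx3cr1 at -8.23 (adjusted p = 0.0442) and Ccrl2 at -5.54 (adjusted p = 0.0119) on the log2 scale. The lone library then held 4 counts of Ccr1, 2 of Ccr2, 0 of Cx3cr1 and 40 of Ccrl2, so the first 3 values depend on the prior count. With replicate 2 alone, Ccrl2 was called higher at 3.71 (adjusted p = 0.0157), and Ccr1, Ccr2 and Cx3cr1 were not called. Ccr9 had 401 counts in replicate 1 and 0 in replicate 2. Marker levels differed between the same 2 libraries. The macrophage sum was 89.5 and 2539 CPM in EGFP-positive cDC1 against 229 and 213 CPM in EGFP-negative cDC1. The stromal sum was 806 and 22.5 CPM in EGFP-positive cDC1 against 10.6 and 10.7 CPM in EGFP-negative cDC1. Sparc made up most of the stromal sum of replicate 1 of EGFP-positive cDC1, at 673 CPM, where Col1a1 had 1.22 CPM. Pecam1 went the other way, at 0 and 19.4 CPM in EGFP-positive cDC1. Csf1r, the macrophage growth factor receptor, had 1.27 and 401 CPM in EGFP-positive cDC1 against 24.6 and 69.4 CPM in EGFP-negative cDC1. Apoe, at 1.31 and 1542 CPM in EGFP-positive cDC1, made up most of the macrophage sum of replicate 2. Other macrophage markers did not all follow: Adgre1 went the other way in EGFP-positive cDC1, at 41.6 and 0.421 CPM. Mrc1 (0.175 and 0.210 CPM) and Pf4 (0.175 and 0.421 CPM) were low in both of its libraries. The part of other cells in these receptor levels was not tested.

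**Figure D3:**
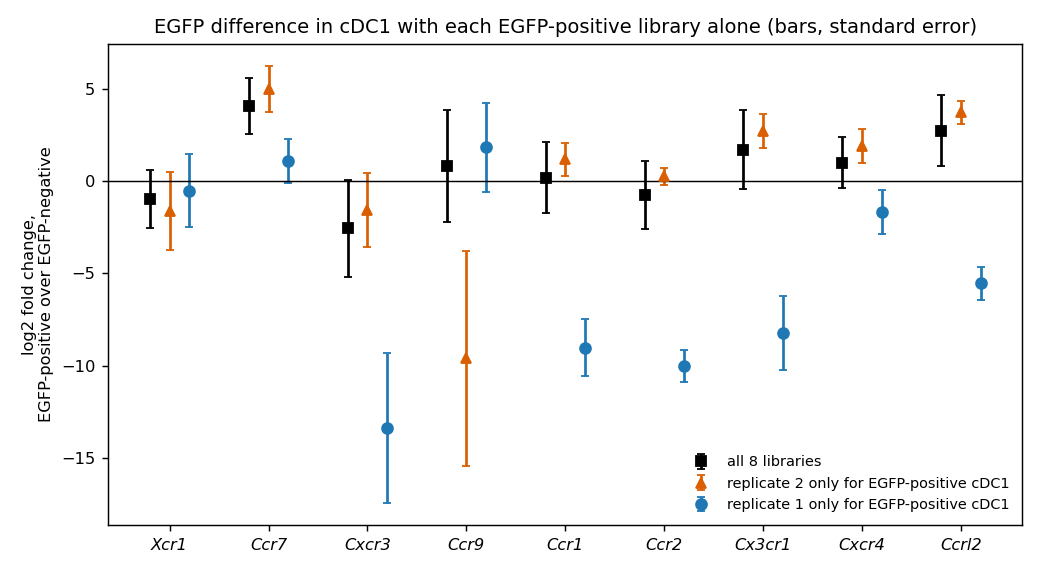
Log2 fold change of EGFP-positive over EGFP-negative cDC1 for the 9 receptor genes in a fit of all 8 libraries (black squares), with replicate 2 as the only EGFP-positive cDC1 library (orange triangles) and with replicate 1 as the only one (blue circles), with standard errors as bars. Ccr7 is above 0 in all 3 fits, whereas Ccrl2 is at 3.71 with replicate 2 and -5.54 with replicate 1, and points below -8 rest on 0 to 4 counts in the lone library.

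**Figure D4:**
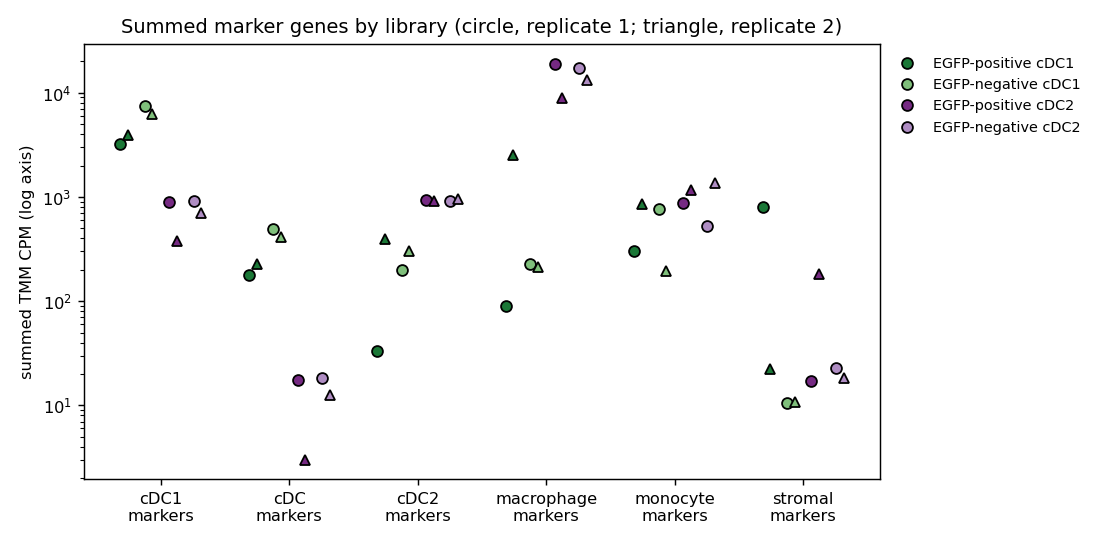
Summed level of 6 marker lists in each library in CPM on a log axis, coloured by group, with circles for replicate 1 and triangles for replicate 2. The macrophage sum is 8969 to 18936 CPM in cDC2 libraries, and among cDC1 libraries it is highest at 2539 CPM in replicate 2 of EGFP-positive cDC1, while the stromal sum is highest at 806 CPM in replicate 1 of that group.

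Within the cDC2 gate edgeR called 0 of the 9 receptors and 0% of all genes, 0 had an unadjusted p under 0.05 against 2.63%, and DESeq2 called 1 against 0.965%. That gene was Ccr9, on 11 counts in EGFP-positive cDC2 and 0 in EGFP-negative cDC2, all 11 in 1 library. Both EGFP-positive libraries lay above both EGFP-negative ones for Cxcr4 and below them for Ccr1, Ccrl2 and Cx3cr1, 4 of 9 against 41.8% of all genes. Cx3cr1 averaged 7.17 ± 3.15 CPM in EGFP-positive cDC2 and 24.5 ± 2.18 CPM in EGFP-negative cDC2 (SD, n = 2 each), a log2 fold change of -1.77 (SE 2.15, edgeR adjusted p = 1). Cxcr4 averaged 19.1 ± 0.672 CPM in EGFP-positive cDC2 and 10.5 ± 2.59 CPM in EGFP-negative cDC2, a log2 fold change of 0.86 (SE 1.35).

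Whether EGFP went with a different change in cDC1 than in cDC2 was tested by an interaction term. The largest positive value belonged to Ccr7, whose EGFP log2 fold change was 4.08 in cDC1 and -2.47 in cDC2, an interaction of 6.54 (SE 2.13, edgeR adjusted p = 0.417). edgeR called 0 of the 9 receptors and 0% of all genes, and 1 (Ccr7) had an unadjusted p under 0.05 against 10.4%. DESeq2 called Ccr7 above 0 and Ccr9 below it, against 6.27% of all genes. The Ccr9 call had 401 and 0 counts in EGFP-positive cDC1 and 131 and 82 in EGFP-negative cDC1. In cDC2 it rested on 11 and 0 counts in EGFP-positive cells and 0 in EGFP-negative cells. The interaction was 5.35 for Ccrl2 when replicate 1 of EGFP-positive cDC1 was left out. Without replicate 2 it was -8.23 for Ccr1 and -9.75 for Ccr2. The lone library then held 4 counts of Ccr1 and 2 of Ccr2, so these values depend on the prior count.

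Of 18 genes for ligands of the 9 receptors, 12 were tested, and over both EGFP fractions 0 were called higher and 3 lower in cDC1 by edgeR, and 0 higher and 7 lower by DESeq2, where 1.32% and 10.2% of all genes were called in either direction. Their median log2 fold change was -2.13, against -0.28 for all genes tested. The cDC2 libraries also had the higher macrophage sum, at 8969 to 18936 CPM, and the part of macrophages in these ligand values was not tested. Ccl12, a CCR2 ligand of mice, had 3.10 and 4.77 CPM in EGFP-positive cDC1 and 0.187 and 0 CPM in EGFP-negative cDC1, against 184 and 102 CPM in EGFP-positive cDC2 and 75.5 and 61.0 CPM in EGFP-negative cDC2 (log2 fold change -6.98, edgeR adjusted p = 0.0209). Ccl7, another CCR2 ligand, had 45.9 and 3.44 CPM in EGFP-positive cDC1 and 0.280 and 3.45 CPM in EGFP-negative cDC1, against 1796 and 1545 CPM in EGFP-positive cDC2 and 150.4 and 339 CPM in EGFP-negative cDC2 (-6.55, adjusted p = 0.0408). The CXCR3 ligand Cxcl9 was lower in cDC1 by a smaller factor (-1.82, adjusted p = 0.0359). The value for Ccl3, a CCR1 ligand, was -1.91 (adjusted p = 0.213). No ligand listed for Xcr1 or Ccr7 was counted: Xcl1, Ccl19, Ccl21a and Ccl21b had 0 counts in all 8 libraries. The CXCR3 ligand Cxcl10 ranged from 9.22 to 1257 CPM, and the CCR9 ligand Ccl25 was present at up to 6.34 CPM in 7 libraries. Cxcl12 and Rarres2 had counts in 1 library each.

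**Figure D5:**
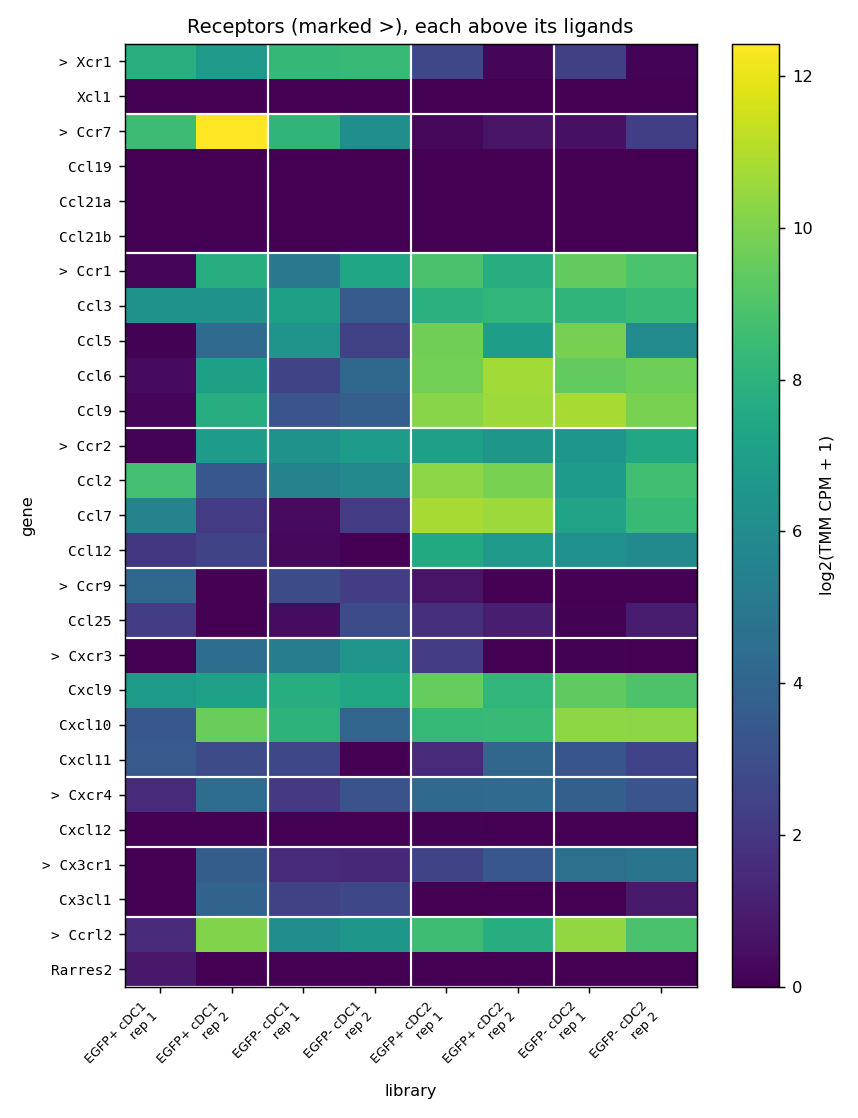
Heat map of log2 of CPM plus 1 for each receptor (marked >) and, under it, its ligands, with the 8 libraries as columns and white lines between groups and between receptors. The rows of Xcl1, Ccl19, Ccl21a and Ccl21b are 0 throughout, and Ccl7 and Ccl12 are brightest in the cDC2 columns.

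Of 15 other chemokine receptor genes found in the table, 4 passed the filter and 0 were called by edgeR over both EGFP fractions, with 2 at an unadjusted p under 0.05, 1 called lower by DESeq2 and a median log2 fold change of -2.59, where 1.32%, 13.5% and 10.2% of all genes passed these tests. Ackr3, an atypical receptor of CXCL12, had 70.6 CPM in replicate 1 and 0.0702 CPM in replicate 2 of EGFP-positive cDC1. Its level was 0.0934 and 0.0466 CPM in EGFP-negative cDC1, 17.5 and 28.9 CPM in EGFP-positive cDC2 and 21.6 and 0 CPM in EGFP-negative cDC2.

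Of 26 genes for G protein subunits, arrestins, receptor kinases, regulators of G protein signalling and migration effectors, 25 were tested. Over both EGFP fractions edgeR called 0, with 0 at an unadjusted p under 0.05 and 0 called by DESeq2, where 1.32%, 13.5% and 10.2% of all genes passed. The median log2 fold change was 0.12, with 15 above 0 and 10 below. In EGFP-positive cells alone edgeR again called 0 between the subsets, against 0.228% of all genes. There, 4 had an unadjusted p under 0.05 and DESeq2 called 3 lower, against 15.9% and 13.9% of all genes. Over both EGFP fractions, the smallest edgeR p-values were those of Dock2, an activator of Rac in migrating leukocytes (log2 fold change 0.83, SE 0.41, adjusted p = 0.415), and Pik3cg, the G protein-coupled PI3-kinase (1.18, SE 0.63, adjusted p = 0.465).

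A list of 20 genes of the migratory state in which dendritic cells raise CCR7 was also read, with 19 tested. Over both EGFP fractions edgeR called 0, with 6 at an unadjusted p under 0.05, DESeq2 called 4 higher and 1 lower (1.32%, 13.5% and 10.2% of all genes passed these tests in either direction), and 12 of 19 had a log2 fold change above 0 with a median of 1.03. Traf1, a signalling adaptor of the TNF receptor family, had 149.6 and 456 CPM in EGFP-positive cDC1 and 232 and 125 CPM in EGFP-negative cDC1, against 27.3 and 25.4 CPM in EGFP-positive cDC2 and 54.9 and 78.2 CPM in EGFP-negative cDC2 (log2 fold change 2.47, SE 0.56, edgeR adjusted p = 0.0759). Ccl22, a chemokine that attracts regulatory T cells, had 5.85 (SE 1.92, adjusted p = 0.242), Il15ra, which presents IL-15, had 1.95 (SE 0.67, adjusted p = 0.247) and Anxa3 had -1.74 (SE 0.44, adjusted p = 0.114). For EGFP-positive over EGFP-negative cDC1, 17 of the 19 had a log2 fold change above 0 with a median of 1.19, against -0.04 for all genes, and edgeR called 0, with 3 at an unadjusted p under 0.05 and 1 called higher by DESeq2, against 12.7% and 11.6% of all genes. The list's summed level was 1097 and 3134 CPM in EGFP-positive cDC1, against 1159 and 696 CPM in EGFP-negative cDC1, so that only replicate 2 of EGFP-positive cDC1 lay above both EGFP-negative libraries. The macrophage sum of that library was also the highest among cDC1 libraries, at 2539 CPM, and its part in these values was not tested. Fscn1, the actin-bundling protein of mature dendritic cells, had 78.4 and 21.3 CPM in EGFP-positive cDC1 and 37.2 and 0 CPM in EGFP-negative cDC1.

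Genes of the most similar pattern were found by the mean absolute difference of centred log2 levels over the 8 libraries, as a description among 5949 genes. For Xcr1 they were Flt3, the dendritic cell growth factor receptor (0.59), Gcsam (0.76) and the checkpoint receptor Btla (0.815). For Ccr7 the nearest were Itgae, the CD103 integrin chain of cDC1 (1.36), Kmo (1.36) and Il12b, which encodes a subunit of IL-12 (1.39). The measure is not scaled to a gene's own spread, which was widest for Ccr7 (SD 4.57 on the log2 scale), so distances do not compare between receptors. Ccr1 lay nearest to Tlr2 (0.39), Irg1 (0.44) and Lilrb4 (0.49), Cx3cr1 to Crat (0.40), Slc11a1 (0.45) and Fcer1g (0.45), and Ccrl2 to Pygl (0.46), Clec5a (0.50) and Csf1r (0.56). For Cxcr3 the nearest were BC035044 (0.56), Tbc1d10c (0.77) and Gpr82 (0.84). Ccr2 (Golph3, Dnajb9 and Tnip3), Cxcr4 (Wbp4, Lasp1 and Ube2z) and Ccr9 (Trmt1, Gng12 and Enox2) had values of 0.275 to 0.618.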

How the data were processed

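Counts were made by the authors: the deposited table holds whole-number read counts per gene symbol for 8 libraries. Per the labels' protocols, cDNA was made by a full-length low-input method and libraries with a KAPA kit. Trimmomatic 0.39, STAR 2.7.5c, Cufflinks 2.2.1 and mm10 are named in the submitters' processing notes. How reads were counted, and with which annotation and strand setting, is not given in the sources used here. In R 4.3.3, edgeR 4.0.16 was run on all 8 libraries (filterByExpr by group, TMM, glmQLFit with robust estimation, glmQLFTest, Benjamini-Hochberg adjustment over 11394 genes, threshold 0.05). Group means gave 5 contrasts and an additive model the 2 pooled ones. A standard error is the absolute log2 fold change over the square root of F. The subset contrast over both EGFP fractions was also run on simulated counts with planted differences, where the check was on their direction. It does not bear on the results that were not called.

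CPM are counts divided by the library total times its TMM factor. PCR reads are not independent molecules, so floors and the counting interval cover counting error only. The receptors and all gene lists were chosen with earlier results of these data known. Named genes were the 9 receptors, up to 4 members of each list (smallest p between subsets over both EGFP fractions, mean of at least 5 CPM) and the 3 genes of nearest pattern (mean of at least 10 CPM, pseudocount 1); Fscn1, Csf1r, marker genes and ligands at 0 counts were picked after their values were seen. Grk2 and Grk3 were matched by their older symbols Adrbk1 and Adrbk2. Coordinates are from GENCODE M21. One named gene of a list is not reported here. Alternatives were DESeq2 1.42.0, RLE scaling, no filter, the compared libraries alone, a replicate block and each library left out, and, chosen after seeing the data, both EGFP-positive cDC1 libraries left out.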

Additional observations from a re-analysis of the deposited data

Results flagged for a closer look

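Among the 18 sets of 4 libraries (9 receptors in each subset, both EGFP fractions together), 6 held a highest library whose gap to the next, as a share of the range, exceeded Dixon's 95% critical value. Chance gives about 1 such set in 20, but that rate assumes normal values from 1 population, whereas these sets pool both EGFP fractions and share libraries. For Ccr9 the other 3 cDC2 libraries were at 0, which fixes the share at 1. In cDC1 these were Ccr7 at 5496 CPM, Ccrl2 at 1070 CPM and Cx3cr1 at 11.7 CPM, all in replicate 2 of EGFP-positive cDC1, where the next libraries had 367, 95.4 and 1.92 CPM. In cDC2 these were Ccr7 at 4.01 CPM in replicate 2 of EGFP-negative cDC2, and Cxcr3 at 3.43 CPM and Ccr9 at 0.572 CPM, both in replicate 1 of EGFP-positive cDC2, the library that also held the highest Xcr1 level of the cDC2 gate at 5.31 CPM.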

How the results depend on the processing

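All 9 receptors kept their direction and stayed uncalled in all 7 contrasts under RLE scaling and without a filter on low counts. No other setting but DESeq2, a fit of the compared libraries alone and leaving out EGFP-positive cDC1 libraries called a receptor. DESeq2 called 4, 4, 2, 1, 1 and 2 receptors for the subsets in both fractions, in EGFP-negative and in EGFP-positive cells, for EGFP in cDC1 and in cDC2, and for the interaction; over all genes it called 1160, 838, 1586, 1325, 110 and 714, and 184 for EGFP over both subsets, where edgeR called 150, 41, 26, 0, 0 and 0, and 0. Without the filter edgeR called 236, 112 and 153 genes for the subsets in both fractions, EGFP-negative and EGFP-positive cells, 57 for EGFP in cDC1 and 29 for the interaction. With the compared libraries alone it called 292 genes and 1 receptor for the subsets in EGFP-negative cells and 0 genes in EGFP-positive cells. Without both EGFP-positive cDC1 libraries it called 392 genes and 2 receptors for the subsets, a comparison then of the EGFP-negative groups only.

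Libraries of equal replicate number did not deviate together (correlations of -0.22 to 0.04 between groups). The wide spread between libraries could hide a shared origin, so these correlations cannot decide whether the number pairs them. The main fit left the number out. The titles also give all replicate 1 libraries one code and all replicate 2 libraries another, whose meaning is not stated, so a shared origin cannot be told from these data. With the replicate number as a block edgeR called 82, 3 and 0 genes for the subsets in both fractions, EGFP-negative and EGFP-positive cells, and 4 uncalled log2 fold changes changed sign: Ccr1 (-0.16) and Ccr9 (-2.56) for EGFP in cDC1, Ccr2 (0.0269) for EGFP in cDC2 and Cxcr4 (-0.0244) for the interaction.

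Leaving out each library in turn gave, for genes called, 50 to 277 for cDC1 over cDC2 in both fractions, 1 to 465 for cDC1 over cDC2 in EGFP-negative cells, 1 to 1273 for cDC1 over cDC2 in EGFP-positive cells, 0 to 1050 for EGFP-positive over EGFP-negative cDC1, 0 to 668 for the interaction, and for receptors called, 0 to 1 for cDC1 over cDC2 in both fractions, 0 to 1 for cDC1 over cDC2 in EGFP-negative cells, 0 to 5 for cDC1 over cDC2 in EGFP-positive cells, 0 to 4 for EGFP-positive over EGFP-negative cDC1, 0 to 2 for the interaction. Log2 fold changes that were uncalled with all 8 libraries and changed sign ranged as follows: For cDC1 over cDC2 in EGFP-negative cells, Ccr2 -0.84 to 0.0679. For cDC1 over cDC2 in EGFP-positive cells, Ccr2 -10.21 to 0.069, Ccr9 -5.52 to 10.60, Cxcr3 -8.17 to 10.72, Cxcr4 -3.44 to 0.14, Cx3cr1 -10.23 to 0.71, Ccrl2 -7.40 to 1.85. For EGFP-positive over EGFP-negative cells in both subsets, Xcr1 -1.73 to 0.37, Ccr7 -0.79 to 2.62, Ccr1 -2.32 to 0.0991, Cxcr3 -2.57 to 3.09, Cxcr4 -0.0187 to 1.28, Cx3cr1 -2.99 to 0.63, Ccrl2 -2.81 to 1.497. For EGFP-positive over EGFP-negative cDC1, Ccr1 -9.03 to 1.80, Ccr2 -10.02 to 0.25, Ccr9 -9.61 to 1.82, Cxcr4 -1.69 to 1.89, Cx3cr1 -8.23 to 2.71, Ccrl2 -5.54 to 3.71. For EGFP-positive over EGFP-negative cDC2, Xcr1 -3.88 to 4.84, Ccr2 -0.66 to 0.25, Cxcr3 -2.36 to 8.13. For the interaction, Xcr1 -5.81 to 2.999, Ccr1 -8.23 to 2.59, Ccr2 -9.75 to 0.52, Ccr9 -15.13 to 0.97, Cxcr4 -2.54 to 1.03, Cx3cr1 -6.46 to 4.48, Ccrl2 -3.91 to 5.35. The cause was not tested. With 2 libraries a group, a lone library was assumed to vary like the other groups. Ccr9 for EGFP in cDC2 gives no value without replicate 1 of EGFP-positive cDC2, since both groups are then at 0. A count of 0 allows a level up to a library's floor, 0.131 to 0.210 CPM, by counting error alone. Values above 0 but under that floor rest on fewer than 3 counts.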
